A study of Mus musculus with 45 samples.

Results

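Expression of 10 genes of the germ line was followed in neuroepithelial organoids made from mouse embryonic stem cells. They are Dazl, Ddx4, Sycp1, Sycp3, Mael, Asz1, Tex101, Slc25a31, Hormad1 and Taf7l, and each was found by its Ensembl identifier in the deposited gene count table, so that all 10 members of the set were recovered among 54532 genes. The organoids were grown clonally in Matrigel with N2B27 medium from wild-type R1 cells, which are 1 established mouse line, so that every group shares 1 genetic background. At day 2 the medium was changed to N2B27 alone (untreated) or to N2B27 with all-trans retinoic acid (RA). RNA was taken at day 2 and at 7 later times, 8 h and 18 h after it and then every 12 h from 30 h to 78 h, with 3 libraries for each of 15 groups and 45 in all. The design text gives the RA dose as 250 nM and the sample labels' protocol as 250 µM. The protocol also lists slightly later final times than the sample titles, whose times are used here. The libraries are called biological replicates by the submitters and all come from 1 line.

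These genes work at separate steps of germ cell life. In somatic cells of the mouse, promoters of genes such as Dazl and Sycp3 are known to carry dense CpG methylation, laid down around implantation by DNMT3A and DNMT3B and copied at replication by DNMT1 with UHRF1, and before that step a repressor complex that holds PCGF6, E2F6, MGA and MAX is known to act on several of them. Naive embryonic stem cells have little DNA methylation and are known to transcribe many germline genes at low levels. DNA methylation was not measured in these samples, so the values that follow are RNA levels only and whether the promoters are methylated here is not known.

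RefSeq (GRCm38.p6) held a promoter entry of 300 bases, from 250 bases before the start to 50 after it, for each of the 10 genes. Both strands were searched for CACGTG, the E-box that MGA and MAX bind, and for GCGGGAA, an E2F-type motif, and the 2 motifs do not overlap each other in sequence. CACGTG was found in 7 of the 10 promoters, against 7.15% of 32817 promoters of the same length in the mouse, and GCGGGAA in 4 of 10, against 4.60%. Of 29 other germline genes with an entry, 9 held CACGTG, 7 GCGGGAA and 2 both. The 4 promoters that hold both belong to Ddx4, Sycp3, Slc25a31 and Hormad1, and 0.457% of all promoters hold both. The dinucleotide CG occurs 15 to 38 times in the members' windows, with a median of 21.5, while the quartiles over all promoters are 3, 7 and 20. Both motifs contain CG, and their shares among promoters of like CG content were not counted. Dazl, Asz1 and Tex101 hold neither motif in this window, which says only that these letters are absent from it. The Tex101 window (chr7:24672001-24672300) lies inside the gene of the GENCODE M21 annotation (chr7:24668007-24676675, minus strand), downstream of its start there. The stretches upstream of Sycp3 and Hormad1, both of which were lower with RA at 54 h, and of Taf7l and Dazl, both of which were higher with RA at 78 h, are shown because the results turn on these 4 genes, 5′ to 3′ on the gene's strand with the motifs in capitals. Of the other members that hold both motifs, Slc25a31 was called higher with RA at 30 h and Ddx4 was called at none of the 7 times. Hormad1 was called at 54 h alone, and its call and that of Dazl at 78 h depended on single libraries. No link between motifs and the direction of change was tested. Each stretch ends before the more upstream of the RefSeq start and the start of the gene in the GENCODE M21 annotation.
Sycp3: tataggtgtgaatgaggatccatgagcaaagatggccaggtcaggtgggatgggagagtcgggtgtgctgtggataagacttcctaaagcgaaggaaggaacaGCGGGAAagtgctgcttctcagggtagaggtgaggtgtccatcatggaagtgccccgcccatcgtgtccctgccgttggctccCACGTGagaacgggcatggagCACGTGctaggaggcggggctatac
Hormad1: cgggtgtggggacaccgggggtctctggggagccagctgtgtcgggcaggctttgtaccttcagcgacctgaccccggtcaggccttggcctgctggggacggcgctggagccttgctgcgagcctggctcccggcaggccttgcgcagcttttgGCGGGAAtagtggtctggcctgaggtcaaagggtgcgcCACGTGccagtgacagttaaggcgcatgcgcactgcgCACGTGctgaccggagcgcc
Taf7l: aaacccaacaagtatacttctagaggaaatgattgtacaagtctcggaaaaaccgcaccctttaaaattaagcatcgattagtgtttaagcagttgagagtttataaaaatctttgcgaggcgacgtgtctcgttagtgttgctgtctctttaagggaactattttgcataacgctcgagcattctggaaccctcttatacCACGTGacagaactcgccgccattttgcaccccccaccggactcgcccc
Dazl: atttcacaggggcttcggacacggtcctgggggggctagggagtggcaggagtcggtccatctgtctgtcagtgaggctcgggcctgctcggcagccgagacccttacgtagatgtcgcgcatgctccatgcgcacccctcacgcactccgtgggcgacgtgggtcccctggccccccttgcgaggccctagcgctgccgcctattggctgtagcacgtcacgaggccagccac
The Sycp3 stretch lies at chr10:88459337-88459568 (plus strand), with GCGGGAA beginning 147 bases and CACGTG 64 and 43 bases before the RefSeq start. The Hormad1 stretch lies at chr3:95559427-95559676 (plus strand), with GCGGGAA 95 bases and CACGTG 57 and 20 bases before the start. The Taf7l stretch lies at chrX:134476491-134476740 (minus strand) and has CACGTG 49 bases before the start. The Dazl stretch lies at chr17:50293637-50293870 (minus strand).

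Totals of counts ranged from 17298632 to 39688686 with a median of 25923745, so that a count of 0 allows a level of up to 0.0756 to 0.173 CPM (counts scaled to a common library total) depending on the library, for counting error only. Levels are CPM scaled by TMM factors over the 45 libraries. Some 6 libraries stood apart from the other 39 in genes that are no members of the set. They are RA 8 h replicate 3, untreated 30 h replicates 1 to 3 and RA 30 h replicates 1 and 3. The listed Y-linked genes summed to 4.86 to 14.6 CPM in these 6 and 91.8 to 358 CPM in the other 39, and in all 6 Rhox5 (6.95 to 11.8 CPM against 57.3 to 289 CPM), a gene of the list of other germline genes, and Xist (1.70 to 4.44 CPM against 15.5 to 211 CPM) were below every other library. These 6 are no labelled group, were picked from such levels in earlier work on these data and are set beside the rest without a test. Since no untreated library at 30 h lies outside the 6, the 30 h step and whatever sets these libraries apart cannot be told apart in untreated organoids. The labelled tissue was checked by its markers: the summed level of 8 neural progenitor markers was 479 to 499.5 CPM at day 2, 1041 to 1229 CPM at 78 h without RA and 1178 to 1371 CPM at 78 h with RA, and 7 of the 8 rose against day 2 in both arms.

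At day 2 most of the 10 genes had measurable transcripts. Per kilobase of merged exon, Sycp3 was highest at 20.3 ± 0.215 CPM per kb (SD, n = 3), followed by Hormad1 at 15.3 ± 0.679, Mael at 12.7 ± 1.3, Ddx4 at 9.39 ± 0.618 and Dazl at 4.99 ± 0.283 CPM per kb. Taf7l (2.57 ± 0.192) and Slc25a31 (2.37 ± 0.248 CPM per kb) followed and overlapped each other's range. Sycp1 (0.906 ± 0.140), Tex101 (0.419 ± 0.0828) and Asz1 (0.0909 ± 0.0736 CPM per kb) were lowest. Asz1, which encodes a protein of the piRNA pathway at germ cell mitochondria, had 0 to 24 counts and Tex101, a surface glycoprotein of germ cells, 2 to 27 counts in the 45 libraries, so that for these 2 genes the depth limits every comparison. Summed over the 10 genes, the level was 131.5 to 141 CPM at day 2, 33.4 to 44.1 CPM at 78 h without RA and 18.9 to 40.2 CPM at 78 h with RA. In these bulk samples fewer cells that transcribe a gene and less RNA per cell cannot be told apart.

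A call was a change of more than 1 on the log2 scale with a Benjamini-Hochberg adjusted p below 0.01 (edgeR's quasi-likelihood test). This was the rule for every call in the text but those of the interaction test, which used the adjusted p alone. By 78 h without RA, 8 of the 9 genes that could be tested had fallen against day 2. Of all genes tested in this comparison, 13.6% fell and 20.3% rose. The median log2 fold change of the members was -2.55, against 0.03 over all genes. With RA at 78 h, 8 of 9 had fallen as well, beside 14.5% of all genes that fell and 22.9% that rose, with a median of -2.01 against 0.04. Both comparisons share the 3 day 2 libraries. Asz1 was removed by the filter on low counts in both. The gene that missed the call differed between the arms: Sycp3 without RA (log2 fold change -0.61, SE 0.11) and Tex101 with RA (-1.14, SE 0.42, adjusted p = 0.0245 by edgeR).

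**Figure D1:**
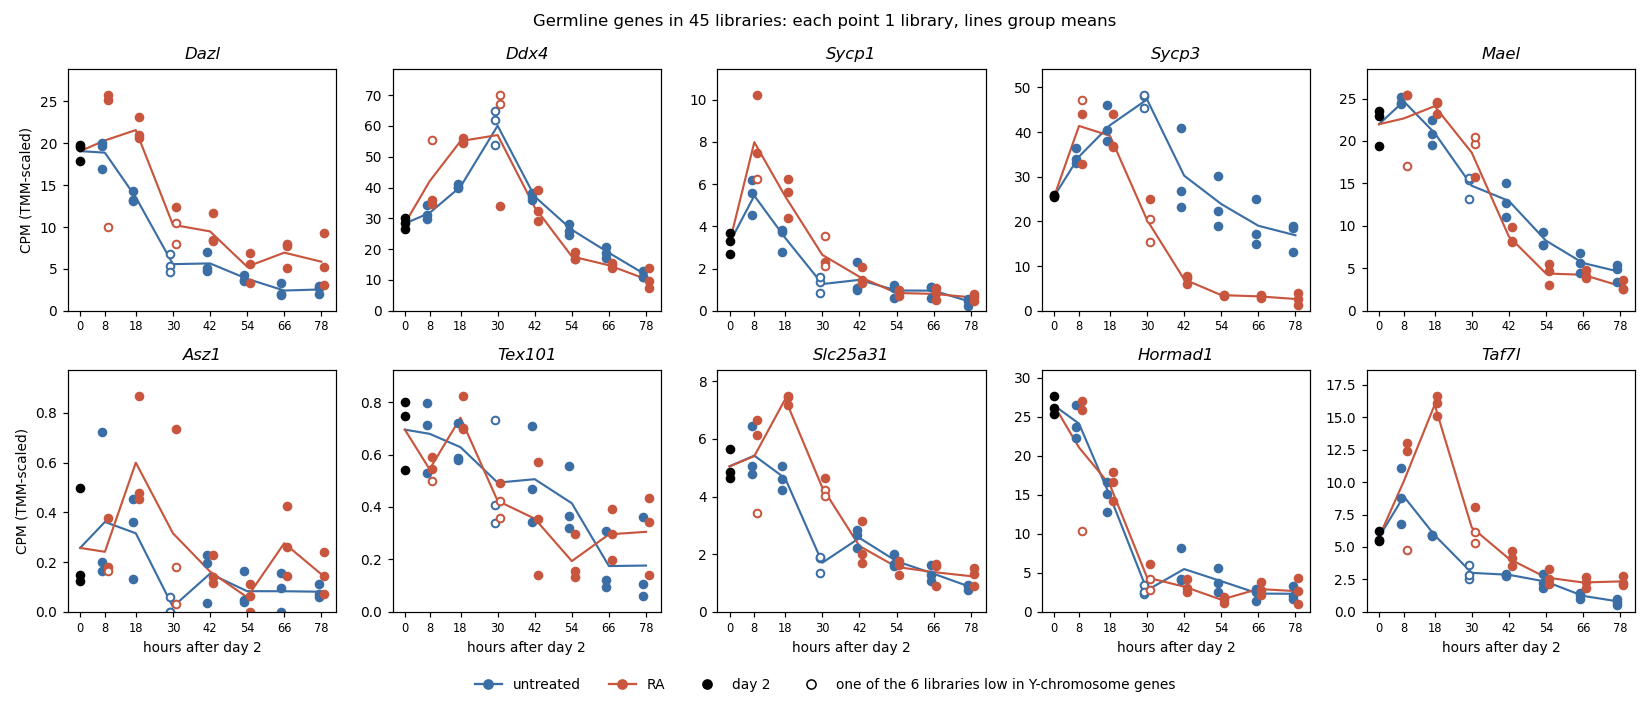
CPM of the 10 germline genes (vertical axes, each from 0) against hours after day 2, with 1 point per library, lines through the means of 3, untreated in blue, RA in red, day 2 in black and the 6 libraries low in Y-chromosome genes as open points. Sycp3 separates from the untreated course at 30 h and later and falls to 1.296 to 4.05 CPM with RA at 78 h, Taf7l is highest with RA at 18 h (15.1 to 16.7 CPM), and Ddx4 is highest at 30 h without RA (53.7 to 64.7 CPM), while with RA at 30 h the open points (67.0 and 70.2 CPM) lie above and replicate 2 (33.9 CPM) below the 18 h libraries.

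Dazl and Ddx4 encode RNA-binding proteins of germ cells, the former a translational regulator and the latter the DEAD-box helicase also known as Vasa. Dazl (chr17:50279395-50293636, minus strand, GRCm38) was at 19.9, 17.8 and 19.5 CPM at day 2 in replicates 1, 2 and 3. Without RA it was at 20.1, 16.9 and 19.7 CPM at 8 h, 13.2, 13.1 and 14.3 CPM at 18 h and 5.34, 4.57 and 6.79 CPM at 30 h. It then went from 7.07, 5.13 and 4.76 CPM at 42 h to 2.98, 2.71 and 1.95 CPM at 78 h. The untreated course was thus flat to 8 h, stood below day 2 in every replicate from 18 h, and fell by 2.92 on the log2 scale by 78 h (SE 0.14, adjusted p = 8.97e-12 by edgeR). Ddx4 (chr13:112598333-112652475, minus strand) took another course. It stood at 28.4, 30.1 and 26.4 CPM at day 2, at 41.0, 40.02 and 39.8 CPM at 18 h and at 64.7, 53.7 and 61.8 CPM at 30 h without RA. By 78 h it was at 11.1, 12.96 and 10.9 CPM, a fall of 1.28 on the log2 scale from day 2 (SE 0.09, adjusted p = 8.53e-10 by edgeR). Ddx4 therefore peaked before it fell, and the untreated 30 h values, from libraries that stand apart, lay above every other untreated library.

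Mael encodes Maelstrom, a protein of the piRNA pathway, which holds transposons silent in germ cells. Mael (chr1:166201201-166238747, minus strand) was at 23.5, 23.0 and 19.4 CPM at day 2, 19.5, 22.5 and 20.8 CPM at 18 h and 5.43, 4.94 and 3.35 CPM at 78 h without RA. Its values at day 2 and 18 h overlapped, and its fall by 78 h was 2.28 on the log2 scale (SE 0.14, adjusted p = 3.54e-10 by edgeR). With RA it reached 3.65, 2.59 and 2.52 CPM at 78 h, 2.90 below day 2 on the log2 scale. Asz1 stayed at or below 0.870 CPM in each of the 45 libraries and had 0 counts in untreated 30 h replicates 1 and 3.

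Sycp1, Sycp3 and Hormad1 encode proteins of the meiotic chromosome axis and synaptonemal complex. Hormad1 (chr3:95559677-95587671, plus strand) had the deepest fall without RA, from 27.7, 25.4 and 26.2 CPM at day 2 through 12.8, 16.7 and 15.1 CPM at 18 h to 3.27, 2.02 and 1.65 CPM at 78 h (-3.55 on the log2 scale, SE 0.16, adjusted p = 5.51e-12 by edgeR). Sycp1 (chr3:102818499-102936100, minus strand) was at 3.69, 2.70 and 3.28 CPM at day 2, at 4.55, 6.21 and 5.58 CPM at 8 h and at 0.575, 0.208 and 0.474 CPM at 78 h without RA. Its 8 h values lay above those of day 2 in every replicate and its 78 h values below them. Sycp3 (chr10:88459569-88473236, plus strand) was at 25.4, 25.6 and 25.9 CPM at day 2, 38.1, 46.1 and 40.4 CPM at 18 h, 48.1, 45.4 and 48.4 CPM at 30 h and 19.06, 18.5 and 13.1 CPM at 78 h without RA. It rose to 30 h and ended below day 2, with a change from day 2 of -0.61 (SE 0.11, adjusted p = 0.000125 by edgeR) that passed the p threshold and missed the fold threshold.

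Slc25a31 encodes the testis form of the mitochondrial ADP/ATP carrier and Taf7l a germ cell form of a TFIID subunit. Slc25a31 (chr3:40708855-40726096, plus strand) was at 4.85, 5.65 and 4.65 CPM at day 2 and 0.935, 0.892 and 0.753 CPM at 78 h without RA (log2 fold change -2.55, SE 0.20). Taf7l (chrX:134460118-134476490, minus strand) was at 6.26, 5.55 and 5.48 CPM at day 2, 6.80, 8.79 and 11.1 CPM at 8 h and 0.539, 1.01 and 0.781 CPM at 78 h without RA (log2 fold change -2.87, SE 0.21). Both were lower in every 78 h library than in any at day 2. Tex101 fell by 1.89 on the log2 scale (SE 0.51, adjusted p = 0.00311 by edgeR) on few counts, a call that was lost by DESeq2 (adjusted p = 0.0134) and on leaving out day 2 replicate 1 or 2 or untreated 78 h replicate 1 or 2 (adjusted p of 0.0144 to 0.0235 by edgeR).

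Several members fell between 18 h and 30 h without RA. Of the 9 members tested 4 fell, beside 6.97% of all genes that fell and 3.37% that rose. Hormad1 went from 12.8, 16.7 and 15.1 CPM to 3.38, 2.32 and 2.604 CPM (log2 fold change -2.38, SE 0.15), Sycp1 changed by -1.42 (SE 0.24), Slc25a31 by -1.40 (SE 0.19) and Dazl by -1.27 (SE 0.12). Ddx4 moved upward over the same step (0.59, SE 0.07, adjusted p = 4.15e-06 by edgeR), below the fold threshold. From 30 h to 42 h 0 of 9 members passed the call by edgeR, and likewise 0 by DESeq2, beside 4.03% of all genes called higher and 0.298% called lower. By edgeR 4 members had an unadjusted p under 0.05, and the share of all genes at that level was not counted. Hormad1 stood at 8.17, 4.11 and 4.18 CPM at 42 h, above all 3 libraries at 30 h, with a log2 fold change of 0.98 (SE 0.27, adjusted p = 0.0144 by edgeR). Without untreated 42 h replicate 2, or without replicate 3, 1 member was called higher. All 3 untreated 30 h libraries are among the 6 that stand apart, and their part in these steps was not tested.

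The members called with RA included both higher and lower genes. At 8 h 0 of 9 members passed the call by edgeR or by DESeq2, beside 1.26% of all genes called higher and 0.537% called lower with RA. By edgeR 1 member had an unadjusted p under 0.05, and the share of all genes at that level was not counted. At 18 h 1 of 10 was called, higher, beside 8.17% of genes higher and 2.76% lower. The counts of members called higher and lower were 1 and 1 of 9 at 30 h (all genes 5.98% and 2.48%), 0 and 1 of 9 at 42 h (7.49% and 4.96%), 0 and 2 of 8 at 54 h (7.17% and 5.99%), 1 and 1 of 8 at 66 h (7.06% and 4.44%) and 2 and 1 of 9 at 78 h (7.66% and 4.03%). Apart from Sycp3, no member was called at more than 2 of the 7 times.

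**Figure D2:**
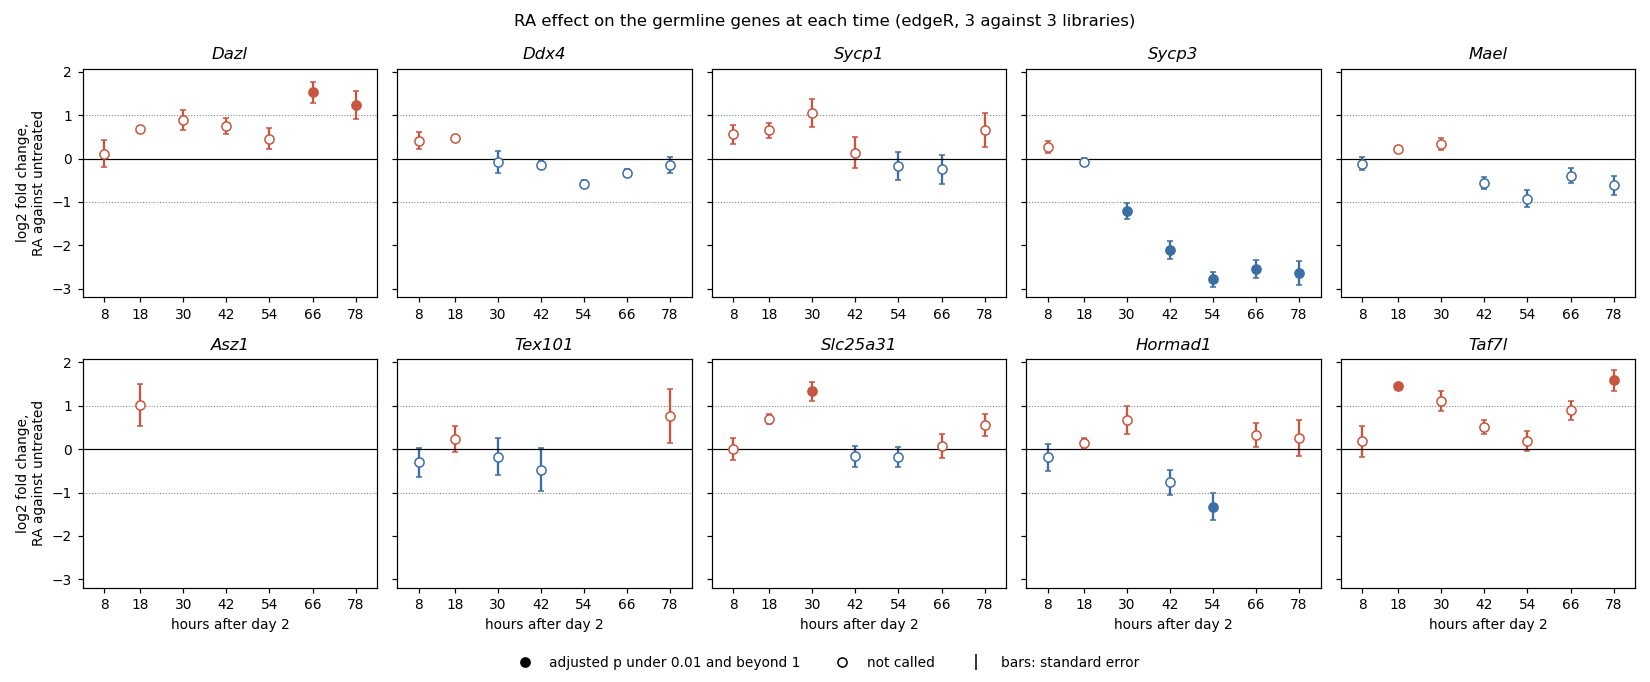
Log2 fold change of RA against untreated (vertical axis, bars show the standard error of the edgeR fit) against hours after day 2 for each member that passed the filter, with filled points for called values and open points for the others, and dotted lines at 1 and -1. Sycp3 goes from -0.07 at 18 h to -2.78 at 54 h, while Taf7l is 1.44 at 18 h and 1.59 at 78 h.

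Sycp3, a lateral element protein of the synaptonemal complex, showed the largest RA difference of the set. At 18 h the groups overlapped, with 38.1, 46.1 and 40.4 CPM without RA and 44.0, 36.9 and 36.6 CPM with RA. At 30 h they did not, with 48.1, 45.4 and 48.4 CPM without RA and 15.5, 24.9 and 20.5 CPM with RA (log2 fold change -1.21, SE 0.18, adjusted p = 0.00273 by edgeR). The gap widened to 30.2, 19.0 and 22.4 CPM against 3.35, 3.58 and 3.58 CPM at 54 h (-2.78, SE 0.17, adjusted p = 3.70e-07 by edgeR). At 78 h the values were 19.06, 18.5 and 13.1 CPM without RA and 4.05, 2.56 and 1.296 CPM with RA (-2.64, SE 0.28, adjusted p = 2.01e-05 by edgeR). The change was -2.11 (SE 0.20) at 42 h and -2.55 (SE 0.20) at 66 h, and the groups did not overlap at any of the 5 times from 30 h on. The RA effect on Sycp3 differed between 30 h and 18 h by -1.12 (SE 0.22, adjusted p = 0.00876 by edgeR's interaction test). Sycp3 was the 1 member of 10 called in this test, beside 3.10% of all genes, both by adjusted p with no fold threshold. That call held without RA 30 h replicate 1 (-0.99, adjusted p = 0.0062) or replicate 2 (-1.34, adjusted p = 4.24e-06) and was lost on leaving out any 1 of the other 10 libraries (adjusted p of 0.0103 to 0.0300), with the replicate block (adjusted p = 0.0143) and with library totals in place of TMM (adjusted p = 0.0119), all by edgeR. The 30 h call was lost on leaving out any 1 untreated library (adjusted p of 0.0147 to 0.0164 by edgeR). The change itself was no smaller then, with log2 fold changes of -1.28 to -1.23. Exons of Sycp3 share 660 bases, 52.2% of its exon length, with Chpt1 on the opposite strand, and the strand setting of the counting is not given in the sources used here. Chpt1 went the other way, with means of 16.0 ± 1.53 CPM without RA and 21.4 ± 2.20 CPM with RA at 78 h (SD, n = 3), and its part in the Sycp3 counts was not tested.

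Among the other meiotic genes, Hormad1 was called lower with RA at 1 time and Sycp1 at none. Hormad1 was called at 54 h, with 5.64, 3.67 and 2.49 CPM without RA against 1.16, 1.91 and 1.62 CPM with RA (log2 fold change -1.32, SE 0.31, adjusted p = 0.00419 by edgeR). The groups did not overlap, yet without untreated 54 h replicate 1 the change was -0.98 (adjusted p = 0.0175 by edgeR), without untreated replicate 2 -1.37 (adjusted p = 0.0145) and without RA 54 h replicate 3 -1.36 (adjusted p = 0.0109). At 78 h Hormad1 was at 3.27, 2.02 and 1.65 CPM without RA and 4.34, 2.66 and 0.981 CPM with RA, which overlapped. Sycp1 had log2 fold changes of 0.65 at 18 h (SE 0.17, adjusted p = 0.00574 by edgeR), below the fold threshold, and 1.05 at 30 h (SE 0.32, adjusted p = 0.0458), and of 0.65 at 78 h (SE 0.39, adjusted p = 0.201).

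Taf7l stood higher with RA. At 18 h it was at 5.91, 5.86 and 5.95 CPM without RA and 16.7, 16.1 and 15.1 CPM with RA (log2 fold change 1.44, SE 0.09, adjusted p = 3.28e-08 by edgeR). At 78 h it was at 0.539, 1.01 and 0.781 CPM without RA and 2.20, 2.73 and 2.10 CPM with RA (1.59, SE 0.24, adjusted p = 0.000297 by edgeR). Every RA library lay above every untreated one at both times. In between the change was 1.11 at 30 h (adjusted p = 0.0130), 0.51 at 42 h (adjusted p = 0.0265), 0.18 at 54 h (adjusted p = 0.542) and 0.89 at 66 h (adjusted p = 0.00683), all by edgeR and none called.

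Dazl was also called higher with RA, at 66 h and 78 h. At 66 h it was at 3.35, 1.98 and 1.91 CPM without RA and 7.97, 7.75 and 5.11 CPM with RA (log2 fold change 1.53, SE 0.24, adjusted p = 0.000513 by edgeR). At 78 h it was at 2.98, 2.71 and 1.95 CPM without RA and 9.24, 5.22 and 3.12 CPM with RA (1.24, SE 0.33, adjusted p = 0.00972 by edgeR). The 78 h groups did not overlap, with RA replicate 3 just above the highest untreated value. That call was lost on leaving out any 1 library other than RA 78 h replicate 3, with adjusted p of 0.0222 to 0.0323 by edgeR, and without RA 78 h replicate 1 the change was 0.74. At 18 h every RA library (23.1, 20.6 and 21.0 CPM) lay above every untreated one (13.2, 13.1 and 14.3 CPM), a change of 0.68 (SE 0.08, adjusted p = 8.70e-06 by edgeR) below the fold threshold. Every RA library was also above every untreated one at 30 h (0.885, adjusted p = 0.0264 by edgeR) and 42 h (0.739, adjusted p = 0.00667 by edgeR), without a call. The groups overlapped at 8 h and 54 h.

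Slc25a31 was called at 30 h, with 1.88, 1.34 and 1.89 CPM without RA and 4.24, 4.66 and 4.03 CPM with RA (log2 fold change 1.33, SE 0.22, adjusted p = 0.00442 by edgeR). The groups did not overlap there, nor at 18 h, when the change was 0.69 (SE 0.12, adjusted p = 0.000314 by edgeR). The 30 h call was lost on leaving out any 1 library other than RA 30 h replicate 2, with log2 fold changes of 1.16 to 1.38. Ddx4 and Mael were called at none of the 7 times. For Ddx4 the largest change by adjusted p was 0.46 at 18 h (SE 0.05, adjusted p = 1.03e-05 by edgeR), with 41.0, 40.02 and 39.8 CPM against 56.1, 54.8 and 54.4 CPM, and at 54 h it was -0.59 (SE 0.09, adjusted p = 0.000210). For Mael the change was -0.92 at 54 h (SE 0.19, adjusted p = 0.00216 by edgeR), with 9.26, 7.79 and 7.72 CPM against 3.04, 4.63 and 5.50 CPM. Tex101 was tested at 5 of the 7 times and Asz1 at 18 h alone, and none of these passed the call.

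The members' levels in the 6 libraries that stand apart were set beside the other 39, which span day 2 to 78 h. Ddx4 was at 53.7 to 70.2 CPM in the 6 and 7.32 to 56.1 CPM in the other 39, and 4 of the 6 lay above all 39. Sycp3 was above all 39 in 3 of the 6. None of the 10 genes was below all 39 in any of the 6. Most members were lowest at late times, which the 6 do not hold, so libraries of 8 h and 30 h could hardly lie below all 39. Within groups that hold both kinds of library the same genes can be set side by side. In RA 8 h, replicate 3 was at 0.392 times the mean of replicates 1 and 2 for Dazl (10 against 25.2 and 25.8 CPM), 0.393 times for Hormad1 (10.4 against 25.8 and 27.01 CPM) and 0.374 times for Taf7l (4.75 against 13.04 and 12.4 CPM). It was at 1.57 times for Ddx4 (55.4 against 34.6 and 36.1 CPM). Of 14314 genes with a mean of at least 1 CPM, 10.5% were below both other replicates and under a ratio of 0.5 in RA 8 h replicate 3, and 3 of the 8 members at that level were. In RA 30 h, the mean of replicates 1 and 3 was 2.02 times replicate 2 for Ddx4 (67.0 and 70.2 against 33.9 CPM), 0.567 times for Hormad1 and 0.723 times for Sycp3. Of the 14314 genes, 4.62% had both replicates above replicate 2 and a ratio over 2, and 1 of the 8 members did. Both replicates were below it with a ratio under 0.5 for 7.1% of genes and 0 of the 8 members.

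**Figure D3:**
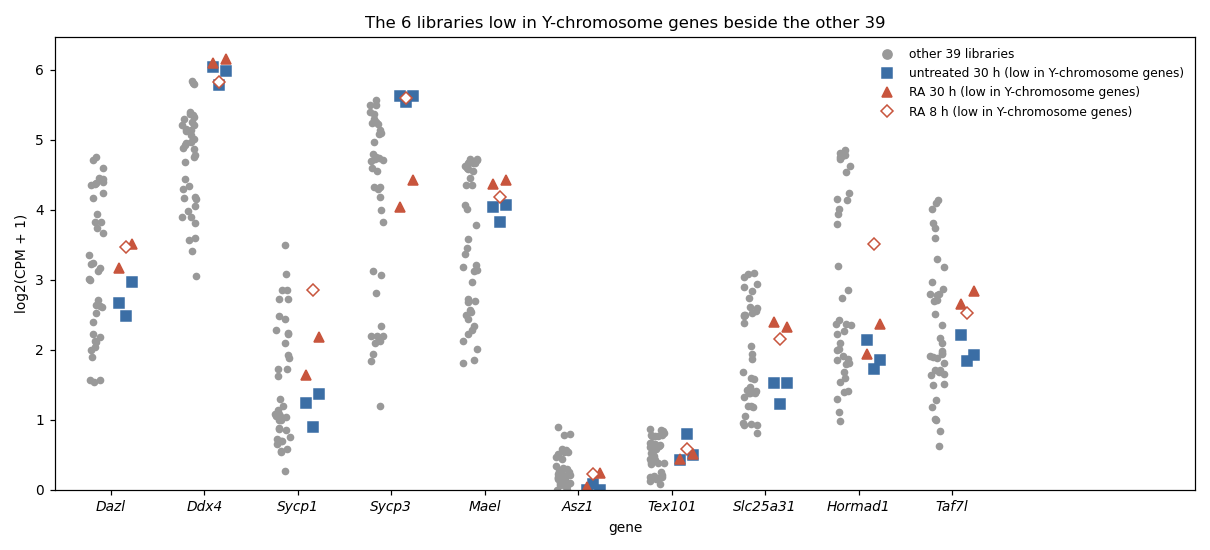
Level of the 10 germline genes as log2(CPM + 1) (vertical axis) in the 6 libraries low in Y-chromosome genes (colored, by group) and the other 39 (grey), with 1 point per library and gene. Ddx4 lies at the top of its range in the 6 (53.7 to 70.2 CPM), while Dazl (4.57 to 10.4 CPM) and Taf7l (2.56 to 6.16 CPM) lie inside the range of the other 39. That range spans day 2 to 78 h.

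The RA comparisons were therefore repeated without the odd library. At 8 h without RA replicate 3, 3.71% of all genes were higher and 1.39% lower, and Dazl was 0.43 higher on the log2 scale (SE 0.09, adjusted p = 0.00195 by edgeR), Sycp1 0.68 (SE 0.16, adjusted p = 0.00451) and Taf7l 0.50 (SE 0.15, adjusted p = 0.0151). None of them passed the fold threshold. At 30 h without RA replicate 2, when each of the 5 libraries left is one of those that stand apart, 8.96% of genes were higher and 4.54% lower. Sycp3 was then at -1.41 (SE 0.10, adjusted p = 7.24e-10 by edgeR), Slc25a31 at 1.23 (SE 0.22, adjusted p = 9.49e-05) and Sycp1 at 1.11 (SE 0.29, adjusted p = 0.00323), and all 3 were called. With RA 30 h replicate 2 included, the Sycp3 change at 30 h was -1.21 (SE 0.18). The part in it of whatever sets these libraries apart was not tested.

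Other germline genes gave a wider view. From a list of 38, 32 could be tested at 78 h without RA against day 2, and 22 fell and 1 rose, while with RA 21 fell and 6 rose. Beside these stand 13.6% of all genes that fell and 20.3% that rose without RA, and 14.5% and 22.9% with RA. In the direct RA comparison at 78 h 10 of 32 were higher and 3, namely Tex15, Hormad2 and Dmc1, lower, beside 7.66% and 4.03% of all genes. Rec8, a meiotic cohesin, and Stra8, a regulator of meiotic entry that RA is known to induce, were the 2 of 33 called at 8 h, both higher, beside 1.26% of all genes. Stra8 had a mean of 517 CPM with RA at 18 h against 5.87 CPM without it. Rec8 had a mean of 193 ± 77.6 CPM with RA at 30 h (SD, n = 3) against 25.4 ± 0.394 CPM without it. RA 30 h replicates 1 and 3 (253 and 221 CPM) and all untreated 30 h libraries are among the 6 that stand apart. At 18 h, outside the 6, its means were 90.5 ± 3.87 CPM with RA and 14.4 ± 0.819 CPM without it. Rhox6 and Rhox9, homeobox genes of the X-linked Rhox cluster, were at 73.3 and 68.9 CPM with RA at 78 h against 3.09 and 2.88 CPM without. Like the members, this list held genes that moved both ways with RA.

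Markers of germ cells were read beside the members. The 7 germ cell markers (Prdm1, Prdm14, Tfap2c, Nanos3, Dppa3, Dnd1 and Kit) summed to 166 to 170 CPM at day 2, 85.2 to 89.3 CPM at 78 h without RA and 152 to 191 CPM at 78 h with RA. Tfap2c alone went from a mean of 14.96 to 74.6 CPM between these arms and held most of the difference in the sum. Of the markers 3 of 7 were called higher with RA at 78 h, beside 7.66% of all genes, while Dnd1 had means of 4.55 and 4.89 CPM and Kit of 50.3 and 60.2 CPM without and with RA. The lowest, Nanos3, a factor of primordial germ cells, had a mean of 0.726 CPM without RA and 2.18 CPM with it. The list of 10 markers of other cell types summed to 47.4 to 53.7 CPM without RA and 449 to 470 CPM with RA at 78 h, of which Krt8 and Krt18 held most. Naive pluripotency markers, 7 in the list, fell from 775 to 816 CPM at day 2 to 208 to 246 CPM without RA and 271 to 434 CPM with RA at 78 h. The part of these cell types in the members' levels was not tested.

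**Figure D4:**
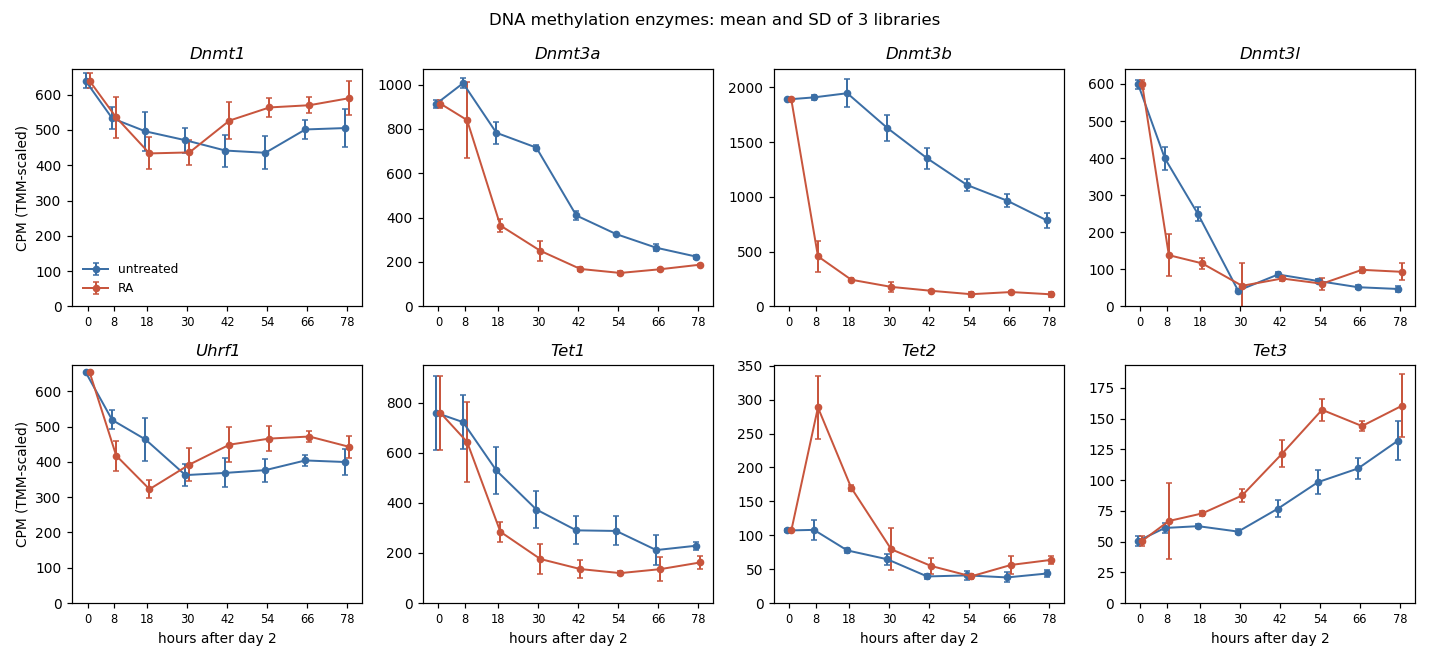
Mean CPM of 8 DNA methylation and demethylation enzymes (vertical axes, from 0) against hours after day 2, untreated in blue and RA in red, with bars for the SD of 3 libraries (the lower bar of Dnmt3l with RA at 30 h, SD 61.7 CPM, is cut at 0). Dnmt3b stays at 784 CPM or more without RA and is at 110 CPM with RA at 78 h, while Dnmt1 stays between 433.5 and 639 CPM in the 15 groups.

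The enzymes of DNA methylation had their own pattern beside these genes. Dnmt3b, a de novo methyltransferase, had a mean of 1890 ± 8.57 CPM at day 2 (SD, n = 3), 1947 ± 126 CPM at 18 h without RA and 243 ± 15.2 CPM at 18 h with RA. It was called lower with RA at all 7 times, with log2 fold changes of -3.34 to -2.06. Dnmt3a, the other de novo enzyme, was called lower from 18 h to 54 h, by 1.52 at most on the log2 scale. Dnmt3l, their cofactor without catalytic activity, fell from 598.5 CPM at day 2 to 46.9 CPM at 78 h without RA and was at 42.5 ± 3.50 CPM in the untreated 30 h libraries. With RA, Dnmt3l was called lower at 18 h (-1.09, SE 0.08). At 78 h its mean was 93.1 ± 23.1 CPM with RA and 46.9 ± 7.52 CPM without it. It was then the 1 enzyme of the 8 called higher with RA. Dnmt1 and Uhrf1, which maintain methylation, were called in none of the comparisons named here, and Dnmt1 means ranged from 433.5 to 639 CPM over the 15 groups. Tet2, one of the enzymes that oxidize methylcytosine, was called higher with RA at 8 h (1.43, SE 0.16) and 18 h (1.14, SE 0.05). Tet1, of the same class, was called lower with RA at 42 h (-1.10, SE 0.18) and 54 h (-1.28, SE 0.12). The 12 repressors of germline genes on the list, among them Pcgf6, E2f6, Mga and Max, had log2 fold changes between -0.81 and 0.52 in the 7 RA comparisons. Against day 2, L3mbtl2, Pcgf6 and Hells fell by 78 h in both arms and Ring1 rose.

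The members resembled each other to different degrees. Over the 45 libraries, on the log2(CPM + 1) scale, Pearson's r of each gene with the mean of the 10, which includes that gene, ran from 0.554 for Asz1 to 0.968 for Mael. Between pairs, r was 0.937 for Slc25a31 and Taf7l and 0.917 for Dazl and Taf7l, but 0.392 for Sycp3 and Dazl and 0.457 for Sycp3 and Taf7l. The libraries share time points, normalization and depth, so these values are descriptions and carry no test. Among 14295 genes with a mean of at least 1 CPM, the 10 with the course most like the mean of the members were Topaz1 (r = 0.973), Nxt2 (0.970), Ankrd31 (0.961), Mcl1 (0.960), Syce1 (0.959), Rnf17 (0.956), Platr21 (0.955), Fam178b (0.954), Platr4 (0.953) and Slc47a1 (0.953). Of these 10, Topaz1, Ankrd31, Syce1 and Rnf17 are known for germ cell roles. The share of such genes among all genes was not counted. Rnf17, a Tudor domain protein, had a mean of 203 CPM at day 2 and 24.9 CPM at 78 h without RA. The 5 most unlike were Vangl2 (r = -0.978), Zbtb12 (-0.964), Nup210 (-0.963), Nmral1 (-0.962) and Rbmx (-0.958). Vangl2, a planar cell polarity gene of the neural tube, went from 79.2 CPM at day 2 to 236 CPM at 78 h without RA.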

How the data were processed

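RNA-seq libraries (poly(A) selection, a directional kit, 75-base single reads) were trimmed by the authors with Trim Galore 0.5.0, filtered against abundant sequences with Bowtie2 2.3.4.1, aligned to GRCm38 with STAR on Ensembl genes and counted with featureCounts (Subread 1.6.2). The deposited values are raw counts per gene, not normalized and not pooled. All columns of the table were used and matched to samples by the library number in each sample title. Positions, exon overlaps and 54409 of 54532 symbols came from GENCODE M21 on GRCm38, another release than the one counted on.

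The libraries of each comparison were fitted alone with edgeR 4.0.16 in R 4.3.3 (TMM, filterByExpr with a minimum count of 10 and a minimum total of 15, glmQLFit and glmQLFTest), over all genes, with Benjamini-Hochberg adjustment and calls for a change of more than 1 on the log2 scale with an adjusted p below 0.01. The standard error is the fold change divided by the square root of F. The RA effect at 30 h against 18 h was an interaction over 12 libraries, called at an adjusted p under 0.01. DESeq2 1.42.0, other scalings and filters, 1 fit of all libraries, a looser threshold, the replicate number as a block and the omission of each library were alternatives. On simulated counts at 18 h (16437 genes, 200 changed by a log2 fold of 2) the procedure recovered 100% with 0 false calls. For the interaction (16930 genes, 200 changed by a log2 fold of 2) it recovered 100% with 2 false calls. In both simulations the changed genes came only from those above a minimum expected count, and every gene had the same dispersion. Recovery of smaller changes, or of changes in genes with few counts such as several members, was not measured.

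All 10 members were named. From other lists at most 4 genes were named by their range of group means, or short lists whole. Tex15, Hormad2, Dmc1, Chpt1, Rhox5, Xist, Krt8, Krt18 and genes named as examples of a list were singled out after their values were seen. The members and lists were chosen with earlier results of these data known. No 2 replicates agreed within sampling noise: over 45 pairs the mean chi-square per gene was at least 1.97. Nothing in the labels says that a replicate number marks a shared culture. Deviations from the group means of same-numbered libraries correlated above 0.1 in every pair at 66 h alone (r = 0.521, 0.213 and 0.247).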

Additional observations from a re-analysis of the deposited data

Results flagged for a closer look

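The effect of RA on Sycp3 was called different between 2 time points, near the threshold. The test of the difference between 30 h and 18 h gave -1.12 on the log2 scale (SE 0.22, adjusted p = 0.00876 by edgeR's interaction test), with an RA change of -0.07 at 18 h and -1.21 at 30 h. All 3 RA libraries at 30 h lay below all 3 untreated ones, and at 18 h the groups overlapped. The call was lost on leaving out any 1 of 10 of the 12 libraries (adjusted p of 0.0103 to 0.0300 by edgeR), with the replicate block (adjusted p = 0.0143) and with library totals (adjusted p = 0.0119). The untreated 30 h libraries and RA 30 h replicates 1 and 3 are among the 6 that stand apart, and what sets them apart was not tested as a source of the difference.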

How the results depend on the processing

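Without any 1 library, or under another scaling, filter or tool, no member's called change reversed. Counts of calls moved more. At an adjusted p below 0.05 whatever the fold, members called were 6 at 18 h, 5 at 30 h, 5 at 42 h, 4 at 54 h and 4 at 66 h for RA against untreated, 8 for untreated 30 h against 18 h and 3 for 42 h against 30 h. A single fit of all 45 libraries called 5 members at 30 h (4 higher, 1 lower). With the replicate block 1 member was called at 30 h and 0 in the interaction, and library totals in place of TMM likewise left 0 in the interaction. At 66 h the block changed no call. Leaving out each library gave 0 to 3 members called at 30 h, 1 to 2 at 54 h, 0 to 1 for untreated 42 h against 30 h and 0 to 1 in the interaction, with the Sycp3 interaction at -1.34 to -0.99. The shares of all genes called at the looser threshold and in the single fit were not counted. The member counts under these settings therefore have nothing to be read against. The cause of these shifts was not tested. Of the called fold changes, Dazl at 78 h missed the threshold with library totals (adjusted p = 0.0125 by edgeR) and with a filter of 10 counts per library (adjusted p = 0.0116 by edgeR), and Tex101 against day 2 did so with DESeq2 (adjusted p = 0.0134). Of 150 group means of the members, 13 moved by more than 1 SD with library totals in place of TMM. Group means without each library were not run. Of the 10 genes most like the members, 6 remained among the 10 without the 6 libraries. Depth limits Asz1 and Tex101, whose counts stayed at or below 24 and 27. With 3 libraries a group, from 1 line, p-values measure the spread between these cultures.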
